A study of Mus musculus with 28 samples.

Results

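The nuclear-encoded genes of oxidative phosphorylation were described in RNA-seq of mouse bone marrow-derived dendritic cells (BMDCs), by respiratory complex, over all 28 libraries of the series. Members were the gene names in both deposited sheets that begin with Nduf, Uqcr, Atp5 or Cox4 to Cox8, or that are Sdha to Sdhd, without pseudogenes, at 1 CPM (read count scaled to a library total of 1000000) or more in at least 3 libraries. The rule uses the level of a gene and no difference between groups. Of 89 such names among 24995 genes, 86 were members: 36 genes of complex I, 4 of complex II, 8 of complex III, 14 of complex IV, 14 of complex V, and 10 assembly factors and related genes. Just inside the threshold, Cox7a1 reached 1 CPM in 15 libraries and Cox6b2 in 21. Just outside it, Atp5l and Ndufa4l2 reached 1 CPM in 1 library each, with highest values of 1.24 and 1.01 CPM, and Cox4i2 in 0 libraries. Of the annotated 50-base stretches of Atp5l, 68.5% also occur in other genes, and the sources used here do not say how such reads were counted.

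The libraries came from 4 genotypes on a C57BL/6 background: IFNARko;RelBko, which lacks both the type I interferon receptor IFNAR and the NF-kB subunit RelB, IFNARko, RelBko and WT. Bone marrow cells were grown with GM-CSF and IL-4, so every group carries that cytokine exposure, and such cultures can hold other myeloid cells beside dendritic cells. Labels put 1 control library in each genotype, and 1 library at 1, 3 and 8 h after CpG (an oligonucleotide ligand of TLR9, at 0.1 µM) and after Poly(I:C) of high molecular weight, which mimics double-stranded RNA and whose dose the titles give as 10 ng/mL and the protocol in µg/mL. The control is labelled 1 h, so the 3 and 8 h libraries have no control of their own time. There were no replicates: each test below takes genotypes, times or stimuli as repeats, and its p measures only the spread between these libraries.

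Reads per library ran between 3269933 (IFNARko, CpG 8 h) and 42227938 (WT, CpG 8 h), with a median of 8533450. The shallowest were the CpG 8 h libraries of IFNARko and IFNARko;RelBko (3814916 reads). Relb was read at a median of 109 CPM in IFNARko;RelBko and 121 CPM in RelBko, against 178 CPM in IFNARko and 156 CPM in WT, with ranges that overlap, so whole-gene counts do not check the RelB labels. The labels do not say which part of the gene is deleted. Ifnar1 ran at 58.1 to 104 CPM in IFNARko;RelBko and at 52.0 to 92.9 CPM in IFNARko, against 116 to 163 CPM in RelBko and 109 to 148 CPM in WT, so every library labelled as lacking IFNAR was lower than every other. The genotypes also differed in sex: Xist was read at 713 CPM or more in every IFNARko;RelBko library and at 445 CPM or more in every WT library, and at no more than 0.589 CPM in IFNARko and 0.880 CPM in RelBko. Among the dendritic cell markers, Itgax (CD11c) was at 588 to 1197 CPM over all libraries, Flt3 at 2.01 to 26.7 CPM, and Cd209a stayed below 1 CPM throughout.

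Oxidative phosphorylation moves electrons from NADH through complex I, or from succinate through complex II, to coenzyme Q, then through complex III and cytochrome c to complex IV, which reduces oxygen. Complexes I, III and IV pump protons across the inner mitochondrial membrane, and complex V, the ATP synthase, lets them flow back to make ATP. Most subunits are nuclear genes, many of them with promoters that bind the nuclear respiratory factor NRF1 or ETS factors such as GABP, while a small core is encoded by mitochondrial DNA. Dendritic cells activated through Toll-like receptors are known to turn from respiration to glycolysis, and complex II links the respiratory chain to the citric acid cycle.

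Promoter sequence was taken from RefSeq (GRCm38.p6), as the 250 bases before the annotated start, and 70 of the 86 members matched, with 75 windows. The 4 stretches printed here hold a respiratory factor motif and come as pairs: Cox6a1 and Ndufs5 carry the NRF1 letters, Uqcr11 and Ndufaf1 the ETS letters, which the window of Cox6a1 also holds outside the stretch printed, and Cox6a1 and Uqcr11 were called lower after stimulation while Ndufs5 and Ndufaf1 were not. Capitals mark the NRF1 letters (GCGC, any base, TGCGC) or the ETS letters (CCGGAAG), searched on both strands. Only the longest stretch free of annotated exons is shown, 5′ to 3′ along the gene's strand, which is the minus strand for all of them.
Cox6a1, chr5:115348982-115349129, called lower at 3 and 8 h of both stimuli: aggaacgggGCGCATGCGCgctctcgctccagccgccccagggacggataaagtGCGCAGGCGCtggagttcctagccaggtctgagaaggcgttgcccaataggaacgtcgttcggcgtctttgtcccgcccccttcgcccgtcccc
Ndufs5, chr4:123718203-123718436, called at no time: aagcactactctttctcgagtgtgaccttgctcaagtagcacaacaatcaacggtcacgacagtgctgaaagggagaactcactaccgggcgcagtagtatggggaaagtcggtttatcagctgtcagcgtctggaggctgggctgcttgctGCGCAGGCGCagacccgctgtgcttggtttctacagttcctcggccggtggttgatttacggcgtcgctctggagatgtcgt
Uqcr11, chr10:80406831-80407071, called lower at 8 h of both stimuli: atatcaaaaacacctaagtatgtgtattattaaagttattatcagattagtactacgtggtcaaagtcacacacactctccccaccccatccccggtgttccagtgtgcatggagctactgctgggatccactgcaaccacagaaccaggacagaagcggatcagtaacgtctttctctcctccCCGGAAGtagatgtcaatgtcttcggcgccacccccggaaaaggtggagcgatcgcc
Ndufaf1, chr2:119662835-119663084, called at no time: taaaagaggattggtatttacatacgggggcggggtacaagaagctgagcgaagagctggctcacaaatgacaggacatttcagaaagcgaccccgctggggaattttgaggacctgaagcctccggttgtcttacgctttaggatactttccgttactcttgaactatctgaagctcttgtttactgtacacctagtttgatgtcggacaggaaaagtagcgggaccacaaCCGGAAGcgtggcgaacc
The NRF1 letters stood in 20% of the member windows, against 3.74% of the 32851 windows of all genes. The ETS letters were in 16% against 6.91%. Of the other letters searched, CCAAT was in 41.3% of member windows against 33.8% of all, an NF-kB-like motif (GGGA, any 4 bases, CC) in 21.3% against 17.6%, and an interferon-response core (GAAA, any pair of bases, GAAA) in 2.67% against 2.98%. The YY1 letters (AA, any base, ATGGCGG) were in 1.33% of member windows against 0.521%. These matches describe letters and are not sites.

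Per length, the members covered a wide range. Atp5b, the catalytic beta subunit of ATP synthase, had the highest median, at 561 RPKM (CPM per kilobase of transcript), followed by Cox4i1, a core-binding subunit of complex IV, at 454 RPKM and Uqcrc1, a core protein of complex III, at 442 RPKM. The lowest medians among members were those of Cox7a1 (2.68 RPKM), Ndufb2 (2.96 RPKM) and Cox6b2 (3.37 RPKM), and Cox6a2 stood at 4.42 RPKM. Cox7a1 and Cox6a2 are the complex IV isoforms of heart and skeletal muscle, and Cox6b2 is the testis isoform. The general counterparts of these isoforms stood far above them per length, with medians of 267 RPKM for Cox6a1, 303 RPKM for Cox6b1 and 104 RPKM for Cox7a2. Of the 3 genes for the identical c subunit of ATP synthase, Atp5g3 led with 315 RPKM, against 35.4 RPKM for Atp5g2 and 11.9 RPKM for Atp5g1. Counting is uncertain for some members: 9 share at least 20% of their 50-base stretches with other genes, Cox5b (25.9%, with Gm11273), Uqcrb (43.2%) and Atp5h (47.9%) among them, while 50 share none.

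The summed level of the members was lower in every genotype at 8 h of either stimulus than in control cells. Summed over the 86 members, WT had 8906 CPM in control cells and 9040, 7733 and 5963 CPM at 1, 3 and 8 h of CpG. RelBko had 9200 CPM in control cells and 8589, 7639 and 6588 CPM. IFNARko had 9986 CPM in control cells and 9312, 8856 and 7830 CPM. IFNARko;RelBko had 9723 CPM in control cells and 9222, 8310 and 7949 CPM. Every genotype stood lower at 8 h than at 3 h of CpG, and as a ratio to its own control the 8 h sum was 0.818 in IFNARko;RelBko, 0.784 in IFNARko, 0.716 in RelBko and 0.670 in WT. With Poly(I:C) the sums at 8 h stood nearer to control, at 8463, 8912, 7372 and 6873 CPM in IFNARko;RelBko, IFNARko, RelBko and WT. In a bulk sample, fewer cells with high levels and less RNA per cell cannot be told apart.

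**Figure D1:**
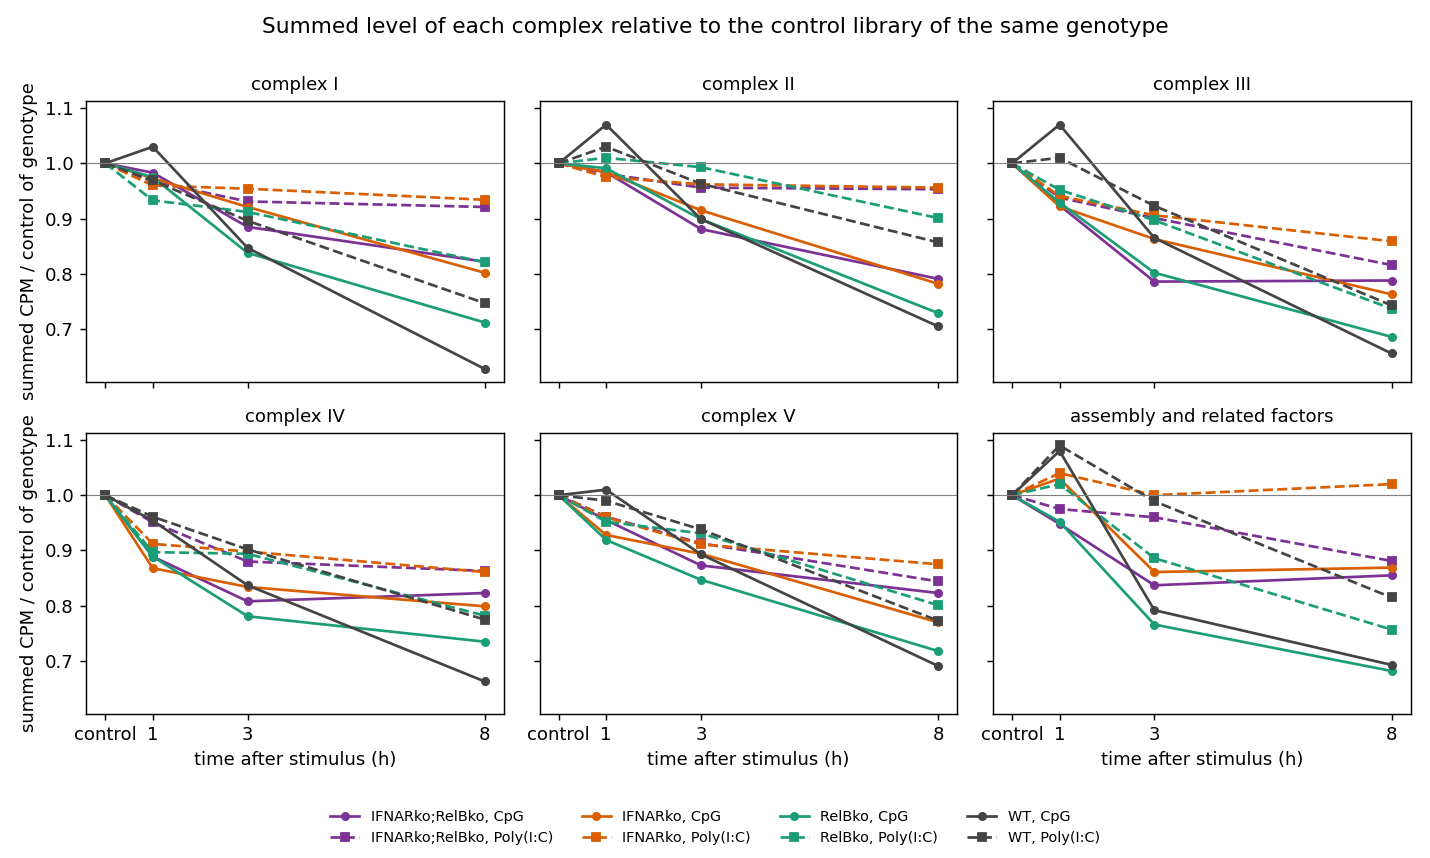
Summed CPM of each complex (vertical axis) as a ratio to the control library of the same genotype, by time after the stimulus in hours (horizontal axis), with 1 line per genotype and stimulus and 1 library per point. Solid lines are CpG and dashed lines Poly(I:C). At 8 h of CpG the WT line lies lowest for complexes I to V and the lines of both genotypes without IFNAR lie highest.

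Each time was then set against control with the 4 genotypes as a block, in a limma fit across all genes, and a call means an adjusted p under 0.05 after Benjamini-Hochberg adjustment over all genes tested. At 8 h of CpG, 71 of the 86 members were called lower and 0 higher, with a median log2 change of -0.42. Over all 12608 genes tested, 38.8% were called lower and 15.3% higher, with a median of -0.17, and among genes averaging 20 CPM or more, as 69 of the members do, 44% were called lower. At 3 h of CpG, 35 members were called lower (median -0.18) and 0 higher, against 31.9% of all genes lower and 12.4% higher (median -0.15), so the members' share of 40.7% was near the background. All 35 were also called lower at 8 h. Without the RelBko libraries the 3 h count was 9. The 1 h comparison with CpG called 1 member, Cox5b, among 0.119% of all genes called lower and 0.508% in any direction.

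Poly(I:C) called 47 members lower at 8 h (median -0.22) and 0 higher, against 24.1% of all 12692 genes lower, 18.9% higher and 43% in any direction (median -0.03). At 3 h it called 11 members (12.8%) lower (median -0.11) and 0 higher, against 9.71% of all genes lower and 13.9% higher (median 0.02). Among genes averaging 20 CPM or more, 13.2% were lower at 3 h, near the members' share, and 30.4% at 8 h. At 1 h it called 0 members by limma, with 14 at an unadjusted p under 0.05, while 0.331% of all genes were called in any direction and 0.323% higher. With RelBko left out, 28 members were called at 8 h of Poly(I:C). At 3 h, 3 were called with RelBko left out, 5 with IFNARko;RelBko left out and 6 with IFNARko left out. Counted without a model, all 4 CpG 8 h libraries lay below all 4 controls for 42 members and for 15.9% of all genes, and all 4 Poly(I:C) 8 h libraries did so for 18 members and for 8.86% of all genes.

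These counts depend on how libraries are scaled. CPM divides by the library total. Scaling instead by median-ratio size factors moved the median of all genes by -0.16 to 0.15 on the log2 scale over the comparisons. The CpG 8 h comparison kept 47 members lower and 1 higher (median -0.25, all genes -0.01), and all 47 were among the 71. At 3 h of CpG it left 7 lower and 1 higher (median -0.04, all genes -0.02). The Poly(I:C) 8 h comparison had 42 lower and 0 higher (median -0.18, all genes 0.00), and at 3 h it gave 21 lower and 0 higher (median -0.13, all genes -0.01), the 11 among them. With size factors, 24.9% of all genes were lower and 23.5% higher at 8 h of CpG, and 21.3% lower and 21.5% higher at 8 h of Poly(I:C). The members' median thus lay below that of all genes at 8 h of both stimuli under both scalings, while at 3 h of CpG 28 of the 35 calls were lost.

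**Figure D2:**
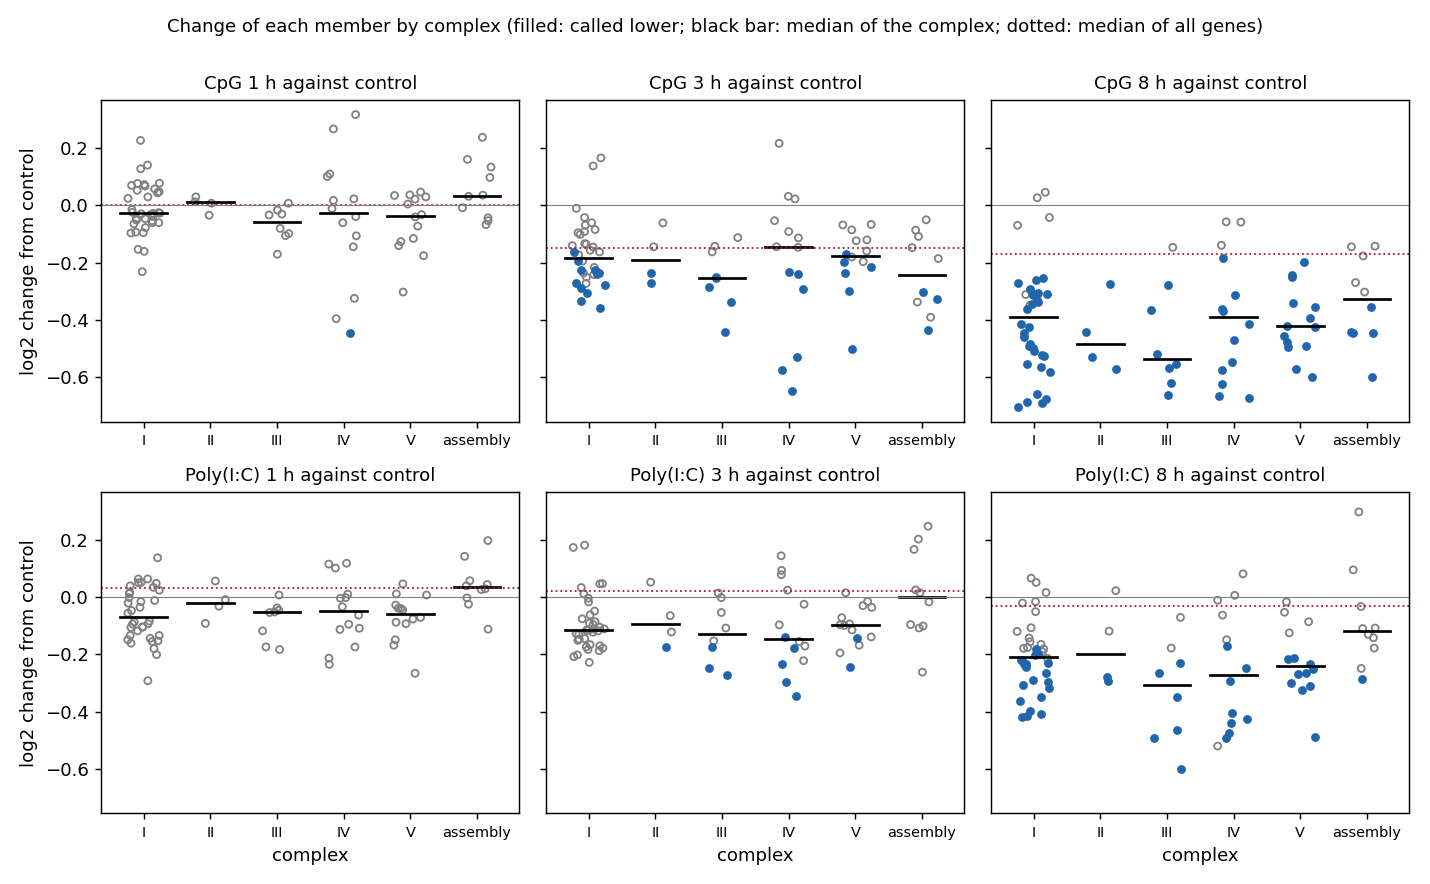
Log2 change from control for each of the 86 members (points), grouped by complex, at 1, 3 and 8 h of CpG (top) and Poly(I:C) (bottom), with filled points called lower, black bars at the median of each complex and a dotted line at the median of all genes tested. At 8 h of CpG, 71 points are filled and all complex medians lie below the dotted line at -0.17.

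Complex I, the NADH dehydrogenase, had 30 of its 36 members called lower at 8 h of CpG (median -0.39) and 20 at 8 h of Poly(I:C) (median -0.21). The largest fall was that of Ndufb9, an accessory subunit of the membrane arm (chromosome 15, 58933756 to 58939488, plus strand, mm10). Its values at 8 h of CpG were 57.9, 52.3, 42.7 and 35.9 CPM in IFNARko;RelBko, IFNARko, RelBko and WT, against 79.2, 78.4, 78.6 and 69.4 CPM in their controls. No CpG 8 h library reached a control, and the change was -0.70 ± 0.090 (log2 ± SE, limma adjusted p = 7.1e-06), or -0.54 with size factors. Ndufa6 and Ndufv3, accessory subunits of the peripheral arm, followed with -0.69 ± 0.111 (adjusted p = 7.3e-05) and -0.69 ± 0.102 (adjusted p = 3e-05), and Ndufs8, a core subunit that holds iron-sulfur clusters, with -0.68 ± 0.091 (adjusted p = 1.3e-05). Ndufs1, the largest core subunit, changed by -0.50 ± 0.061 (adjusted p = 4.9e-06) and Ndufv1, which binds NADH, by -0.56 ± 0.078 (adjusted p = 1.5e-05). The 6 complex I members with no call at 8 h of CpG were small accessory subunits: Ndufa3, Ndufab1, Ndufb2, Ndufb3, Ndufb4 and Ndufs5. Of these, Ndufb4 and Ndufs5 share 37.0% and 31.1% of their 50-base stretches with other genes. Mean levels of the 6 were mostly low, at 49.6, 13.1, 7.42, 26.1, 3.7 and 7.40 CPM in the order listed. The part of level in the missing calls was not tested.

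Complex II, succinate dehydrogenase, was called lower in all 4 members at 8 h of CpG (median -0.48) and in 2 at 8 h of Poly(I:C). Sdhb, the iron-sulfur subunit, had 66.6, 91.4, 65.0 and 56.1 CPM at 8 h of CpG in IFNARko;RelBko, IFNARko, RelBko and WT, against 93.1, 112, 98.7 and 95.3 CPM in their controls. All 4 CpG libraries were below all controls, with a change of -0.53 ± 0.076 (adjusted p = 2.2e-05). The membrane anchors Sdhd and Sdhc changed by -0.57 ± 0.073 (adjusted p = 7.1e-06) and -0.44 ± 0.067 (adjusted p = 4.2e-05). Sdha, the flavoprotein that oxidises succinate, had, with Cox6b1, the narrowest range of the members averaging 5 CPM or more (0.51 on the log2 scale for each), with 224 to 321 CPM over the 28 libraries, and its change of -0.28 ± 0.054 at 8 h of CpG (adjusted p = 0.00042) was not called with size factors (-0.11).

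Complex III, the cytochrome bc1 complex, had 7 of 8 members lower at 8 h of CpG (median -0.54) and 6 at 8 h of Poly(I:C) (median -0.31). Uqcrfs1, the Rieske iron-sulfur protein (chromosome 13, 30540308 to 30545362, minus strand), showed the largest Poly(I:C) fall of all members. Its values at 8 h of Poly(I:C) were 120, 140, 113 and 103 CPM in IFNARko;RelBko, IFNARko, RelBko and WT, against 166, 185, 196 and 173 CPM in their controls. Its change was -0.60 ± 0.073 (adjusted p = 9.3e-06), or -0.56 with size factors, and -0.52 ± 0.072 at 8 h of CpG (adjusted p = 1.6e-05). Uqcr10, a small accessory subunit, changed by -0.66 ± 0.077 with CpG (adjusted p = 2.6e-06) and by -0.47 ± 0.056 with Poly(I:C) (adjusted p = 9.3e-06). Uqcrh, the hinge protein that helps cytochrome c dock, was called at no time: it had 145, 135, 114 and 102 CPM at 8 h of CpG in IFNARko;RelBko, IFNARko, RelBko and WT, against 156, 138, 134 and 120 CPM in their controls. Each genotype was below its own control, but the ranges overlap.

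Complex IV, cytochrome c oxidase, had 11 of 14 members lower at 8 h of CpG (median -0.39) and 8 at 8 h of Poly(I:C) (median -0.27). It held the 1 call made at 1 h. Cox5b, a matrix-side subunit (chromosome 1, 36691449 to 36693681, plus strand), had 96.2, 97.3, 93.9 and 92.7 CPM at 1 h of CpG in IFNARko;RelBko, IFNARko, RelBko and WT, against 128, 143, 122 and 128 CPM in their controls. All 4 libraries were below all controls, and the change was -0.45 ± 0.078 (adjusted p = 0.0079), or -0.44 with size factors. It was -0.65 ± 0.078 at 3 h (adjusted p = 5.2e-06) and -0.62 ± 0.078 at 8 h (adjusted p = 5.3e-06) (the changes at 3 and 8 h differ by less than their errors). Cox8a, the general isoform of subunit VIII, had 201, 178, 172 and 179 CPM at 3 h of CpG in IFNARko;RelBko, IFNARko, RelBko and WT, against 291, 258, 274 and 264 CPM in their controls, without overlap (-0.57 ± 0.100, adjusted p = 0.00023). Cox5a, which binds the core with Cox4i1, changed by -0.53 ± 0.080 at 3 h (adjusted p = 5.8e-05) and -0.67 ± 0.080 at 8 h (adjusted p = 3.3e-06), while Cox4i1 itself changed by -0.36 ± 0.063 at 8 h (adjusted p = 0.00014). Cox6b1, on the intermembrane side, was called at no time and kept between 124 and 177 CPM over all libraries, and Cox6c was likewise called at no time.

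Complex V, the ATP synthase, had all 14 members lower at 8 h of CpG (median -0.42) and 10 at 8 h of Poly(I:C) (median -0.24). Atp5d, the delta subunit of the F1 rotor, had the largest fall of this complex with Poly(I:C). At 8 h of Poly(I:C) it had 198, 203, 172 and 168 CPM in IFNARko;RelBko, IFNARko, RelBko and WT, against 252, 256, 263 and 267 CPM in their controls, with no overlap (-0.49 ± 0.058, adjusted p = 7.3e-06). With CpG its changes were -0.50 ± 0.098 at 3 h (adjusted p = 0.00065) and -0.60 ± 0.098 at 8 h (adjusted p = 9.2e-05). The catalytic pair Atp5a1 and Atp5b changed by -0.42 ± 0.057 (adjusted p = 1.2e-05) and -0.39 ± 0.055 (adjusted p = 1.8e-05) at 8 h of CpG. The smallest changes of this complex at 8 h of CpG were those of the stalk and membrane subunits Atp5h (-0.20 ± 0.078, adjusted p = 0.039), Atp5j2 (-0.24) and Atp5j (-0.25), none of which was called with size factors.

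Of the 10 assembly and related genes, 5 were lower at 8 h of CpG (median -0.33) and 1, Cox7a2l, at 8 h of Poly(I:C). Cox7a2l changed by -0.35 ± 0.078 with CpG (adjusted p = 0.0011) and -0.28 ± 0.080 with Poly(I:C) (adjusted p = 0.0088). The complex I assembly factors Ndufaf1, Ndufaf2, Ndufaf4 and Ndufaf5 were called at no time. In all, 9 members were lower at 3 and 8 h of both stimuli: Atp5b, Atp5d, Cox5b, Cox6a1, Cox7b, Cox8a, Uqcr10, Uqcrfs1 and Uqcrq. A further 15 were called lower at no time of either stimulus. Both stimuli and all times were set against the same control libraries, so calls shared between them are not separate results. These counts of 9 and 15 were not made over all genes. By promoter letters, 11 of 14 members with the NRF1 letters were lower at 8 h of CpG, beside 46 of 56 without, and 9 of 12 with the ETS letters, beside 48 of 58 without.

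**Figure D3:**
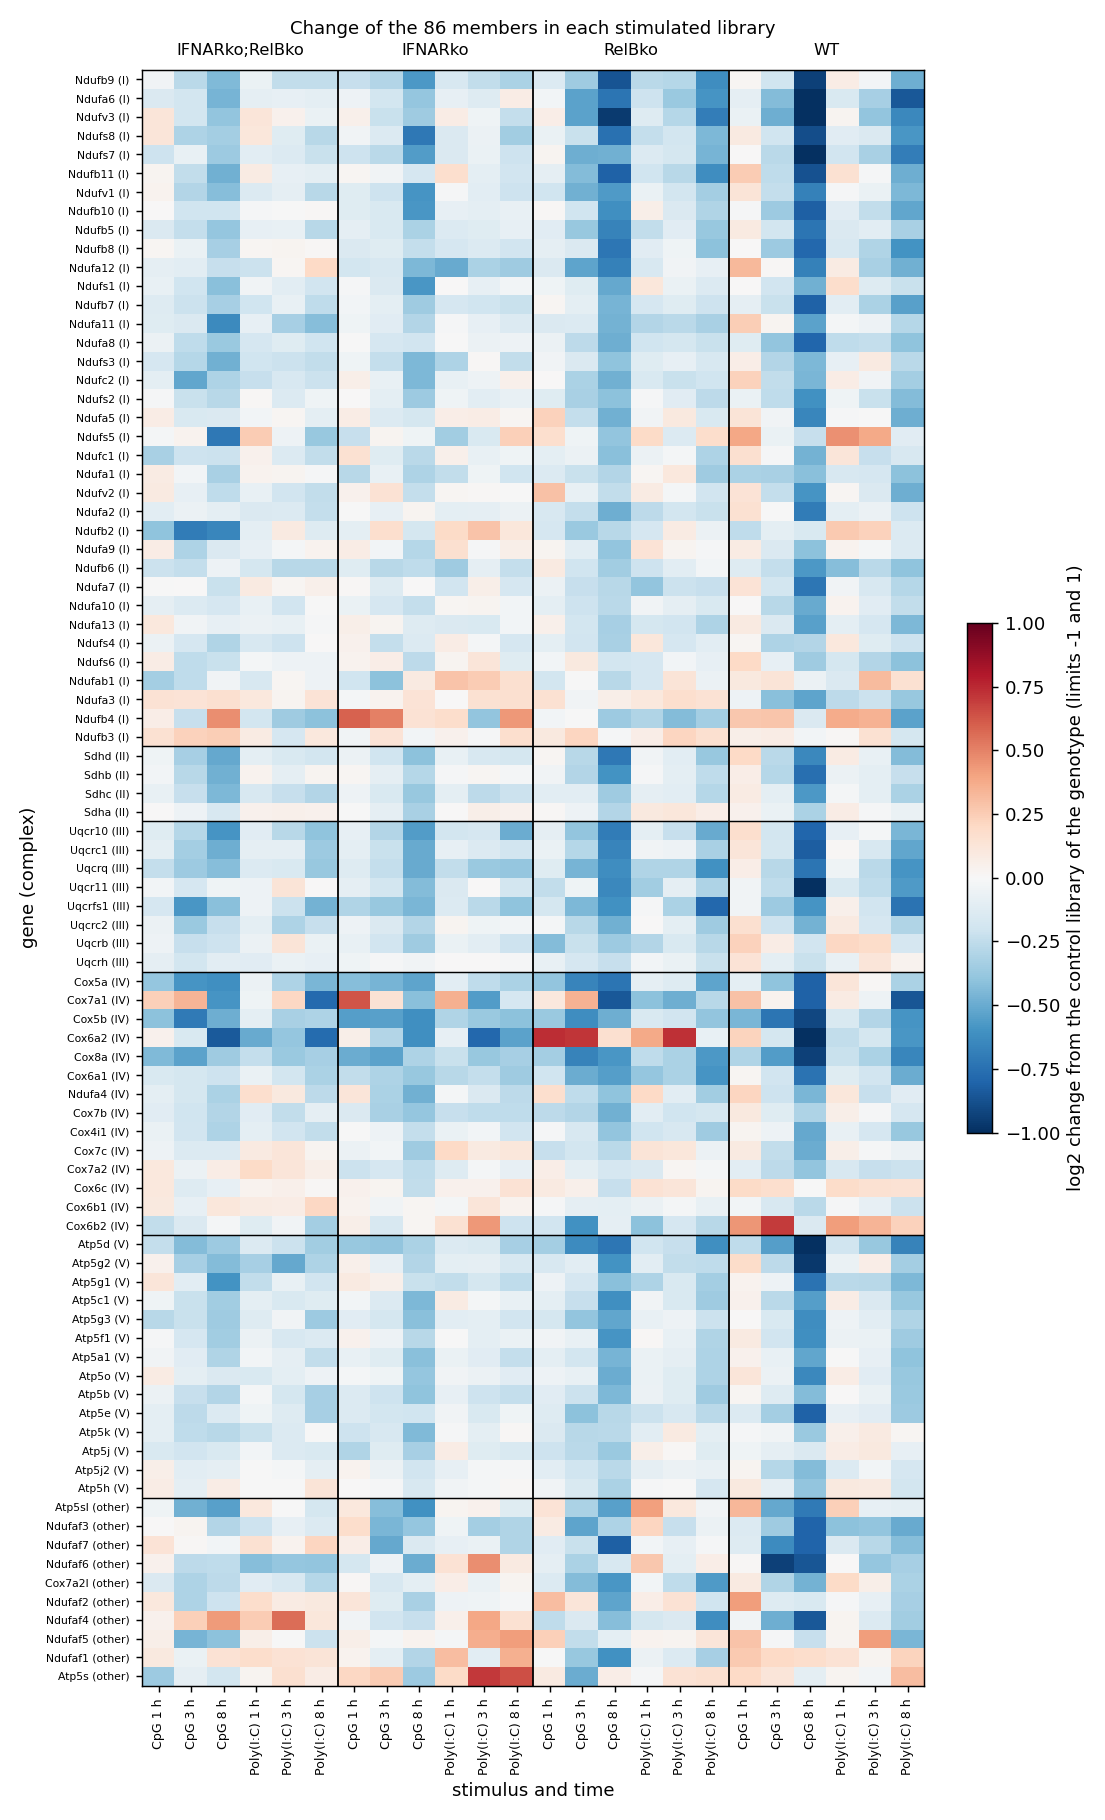
Log2 change of each of the 86 members (rows, grouped by complex) from the control library of the same genotype in each of the 24 stimulated libraries (columns), with blue for lower and red for higher and limits at -1 and 1. The WT CpG 8 h column, where 85 of 86 members were below control, is darkest, and the median there was -0.58 against -0.29 in IFNARko;RelBko.

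Within each genotype, 78 members were below control at 8 h of CpG in IFNARko;RelBko (median -0.29), 78 in IFNARko (median -0.32), 83 in RelBko (median -0.47) and 85 in WT (median -0.58). The same medians over all genes were -0.09, -0.15, -0.20 and -0.21. With Poly(I:C) at 8 h the members' medians were -0.18, -0.12, -0.27 and -0.36, over all-gene medians of 0.02, -0.04, -0.05 and -0.06. These are values of 1 library each, and the CpG 8 h libraries without IFNAR are the shallowest. The difference itself was tested as the late response (the mean of 3 and 8 h) without IFNAR against with IFNAR: 0 members were called by limma for CpG (median difference 0.13, 7 members at an unadjusted p under 0.05) and 0 for Poly(I:C) (median 0.09, 3 members at an unadjusted p under 0.05), where 1.9% of all genes (0.879% higher, 1.02% lower) and 1.16% (0.339% higher, 0.825% lower) were called. A p that misses the threshold does not show equal responses. Taking 8 h alone, a contrast chosen after the data were seen, 11 members had a less negative CpG change in cells without IFNAR, among 6.61% of all genes called higher, with the shallowest pair of libraries on the side without IFNAR, and 2 did so with Poly(I:C), among 2.62%. For the response without RelB against with RelB, 0 members were called for either stimulus by limma, with 1 at an unadjusted p under 0.05 in each, and medians of 0.01 and 0.00, where 0% and 0.00771% of all genes were called.

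Genotypes were compared over the 6 stimulated conditions. IFNARko libraries had 54 members higher and 1 lower than WT libraries (median 0.21), against 40% of all 12897 genes higher, 13% lower and 53% in any direction (median 0.14). The size of the difference varied by time: the members' median of IFNARko over WT was 0.02, 0.19 and 0.40 at 1, 3 and 8 h of CpG (all genes 0.06, 0.16 and 0.21) and 0.10, 0.18 and 0.38 at 1, 3 and 8 h of Poly(I:C) (all genes 0.11, 0.16 and 0.16). In control cells it was 0.14, as over all genes. These are differences of 1 library each, with 47 and 81 members higher at 1 and 8 h of CpG and 63 and 84 at 1 and 8 h of Poly(I:C). IFNARko;RelBko libraries had 44 higher and 1 lower than RelBko libraries (median 0.17), against 42.6% of all genes higher and 13.8% lower (median 0.16). Scaling bears on both. With size factors, IFNARko against WT left 18 higher and 1 lower (median 0.06, all genes -0.00), all 18 among the 54, with 22.8% of all genes higher and 23.2% lower, and IFNARko;RelBko against RelBko gave 4 higher and 9 lower (median -0.01, all genes -0.01), so its direction turned, with 22.7% of all genes higher and 24.5% lower. RelBko libraries against WT gave 6 higher and 1 lower (median 0.04), among 19.5% of all genes higher and 8.97% lower (median 0.08), and 0 higher and 4 lower with size factors (median -0.05, all genes 0.00), so the direction turned there too. From the CpG libraries alone, or the Poly(I:C) libraries alone, 0 members were called for RelBko against WT. IFNARko;RelBko against IFNARko gave 12 higher and 12 lower (median 0.01), among 33.3% of all genes higher, 16.5% lower and 49.8% in any direction (median 0.11), and 7 higher and 29 lower with size factors (median -0.10, all genes 0.01).

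**Figure D4:**
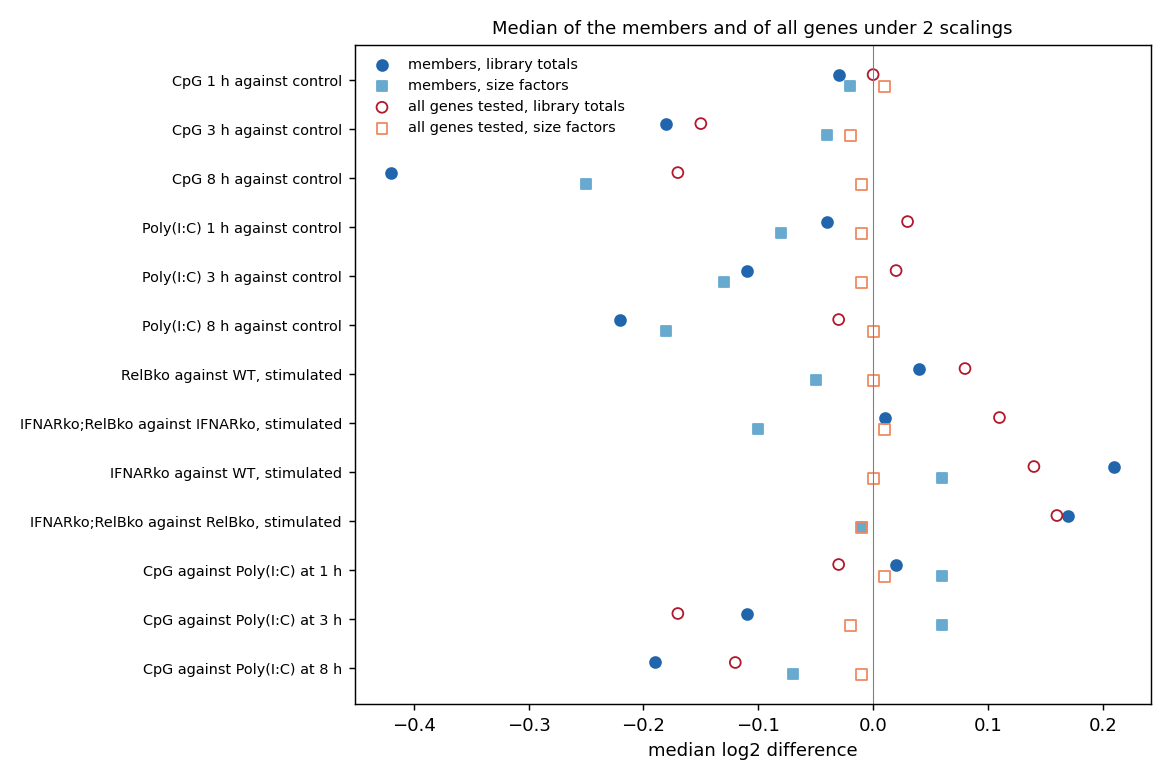
Median log2 difference (horizontal axis) over the 86 members (filled) and over all genes tested (open) in 13 comparisons (vertical axis), scaled by library totals (circles) or by median-ratio size factors (squares). The members lie below all genes at 8 h of both stimuli under both scalings, at -0.42 and -0.25 for CpG, and for IFNARko;RelBko against RelBko the medians of the members and of all genes are 0.17 and 0.16, or -0.01 and -0.01.

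The largest genotype differences, present under both scalings, were those of Ndufa4, Cox6a2 and Cox6b2 of complex IV and the assembly factor Ndufaf7. Ndufa4, once counted to complex I and now known as a subunit of complex IV (chromosome 6, 11900292 to 11907497, minus strand), varied most of all members averaging 5 CPM or more. In the stimulated libraries it ran at 22.3 to 34.3 CPM in IFNARko (median 27.2), against 9.76 to 16.1 CPM in WT (median 12.2), with no overlap. The difference was 1.07 ± 0.076 (adjusted p = 3.6e-11), or 0.92 with size factors. IFNARko;RelBko lay lower than IFNARko, at no more than 22.7 CPM (median 18.2; -0.54 ± 0.076, adjusted p = 3.4e-06), and overlapped RelBko at 12.3 to 19.2 CPM (median 14.6; 0.29 ± 0.076, adjusted p = 0.0024, not called with size factors at 0.12). The control libraries ran the same way, at 20.1, 31.5, 16.6 and 13.8 CPM in IFNARko;RelBko, IFNARko, RelBko and WT.

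Cox6a2, the muscle isoform (chromosome 7, 128205435 to 128206387, minus strand), was lower in IFNARko than in WT. It ran at 0.698 to 2.06 CPM in stimulated IFNARko libraries (median 1.20), against 2.56 to 7.36 CPM in WT (median 5.18), with no overlap (-1.34 ± 0.131, adjusted p = 8.8e-09). In IFNARko;RelBko it stood at 2.36 to 5.18 CPM (median 3.42; 0.98 ± 0.131 against IFNARko, adjusted p = 1.5e-06), and in RelBko at 1.76 to 3.85 CPM (median 3.26; -0.53 ± 0.131 against WT, adjusted p = 0.0034). With size factors the difference between IFNARko and WT was -1.46. These are low counts in the shallow libraries.

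Cox6b2, the testis isoform (chromosome 7, 4751792 to 4753094, minus strand), was highest in IFNARko;RelBko, at 2.96 to 3.93 CPM (median 3.57), against 0.536 to 1.20 CPM in RelBko (median 0.990), with no overlap (1.24 ± 0.140, adjusted p = 1e-07, or 1.11 with size factors). IFNARko ran at 1.43 to 2.79 CPM (median 1.88) and WT at 0.426 to 1.55 CPM (median 1.05), which overlap (0.55 ± 0.140, adjusted p = 0.0019). Ndufaf7, a methyltransferase that modifies complex I during assembly, had medians of 16.3, 13.1, 10.3 and 8.34 CPM in IFNARko;RelBko, IFNARko, RelBko and WT, and was higher in IFNARko;RelBko than in RelBko (0.73 ± 0.104, adjusted p = 3e-06) and in IFNARko than in WT (0.59 ± 0.104, adjusted p = 4.8e-05). Ndufa3 of complex I (chromosome 7, 3617373 to 3620327, plus strand) stood apart in IFNARko;RelBko, at 57.8 to 63.4 CPM, against 45.0 to 51.0 CPM in IFNARko (0.35 ± 0.064, adjusted p = 9e-05) and 42.7 to 49.3 CPM in RelBko (0.39 ± 0.064, adjusted p = 2.3e-05). Relb is also on chromosome 7: Cox6b2 lies 14.9 Mb from it, Ndufa3 somewhat farther and Cox6a2 109 Mb away, and of 9 members on that chromosome Atp5sl is nearest, at 5.99 Mb. On chromosome 16, Atp5o lies 0.418 Mb from Ifnar1, the closest of the members to either targeted gene, and Atp5j 6.65 Mb from it. Loss of RelB or IFNAR and alleles linked to the deleted gene cannot be told apart here.

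**Figure D5:**
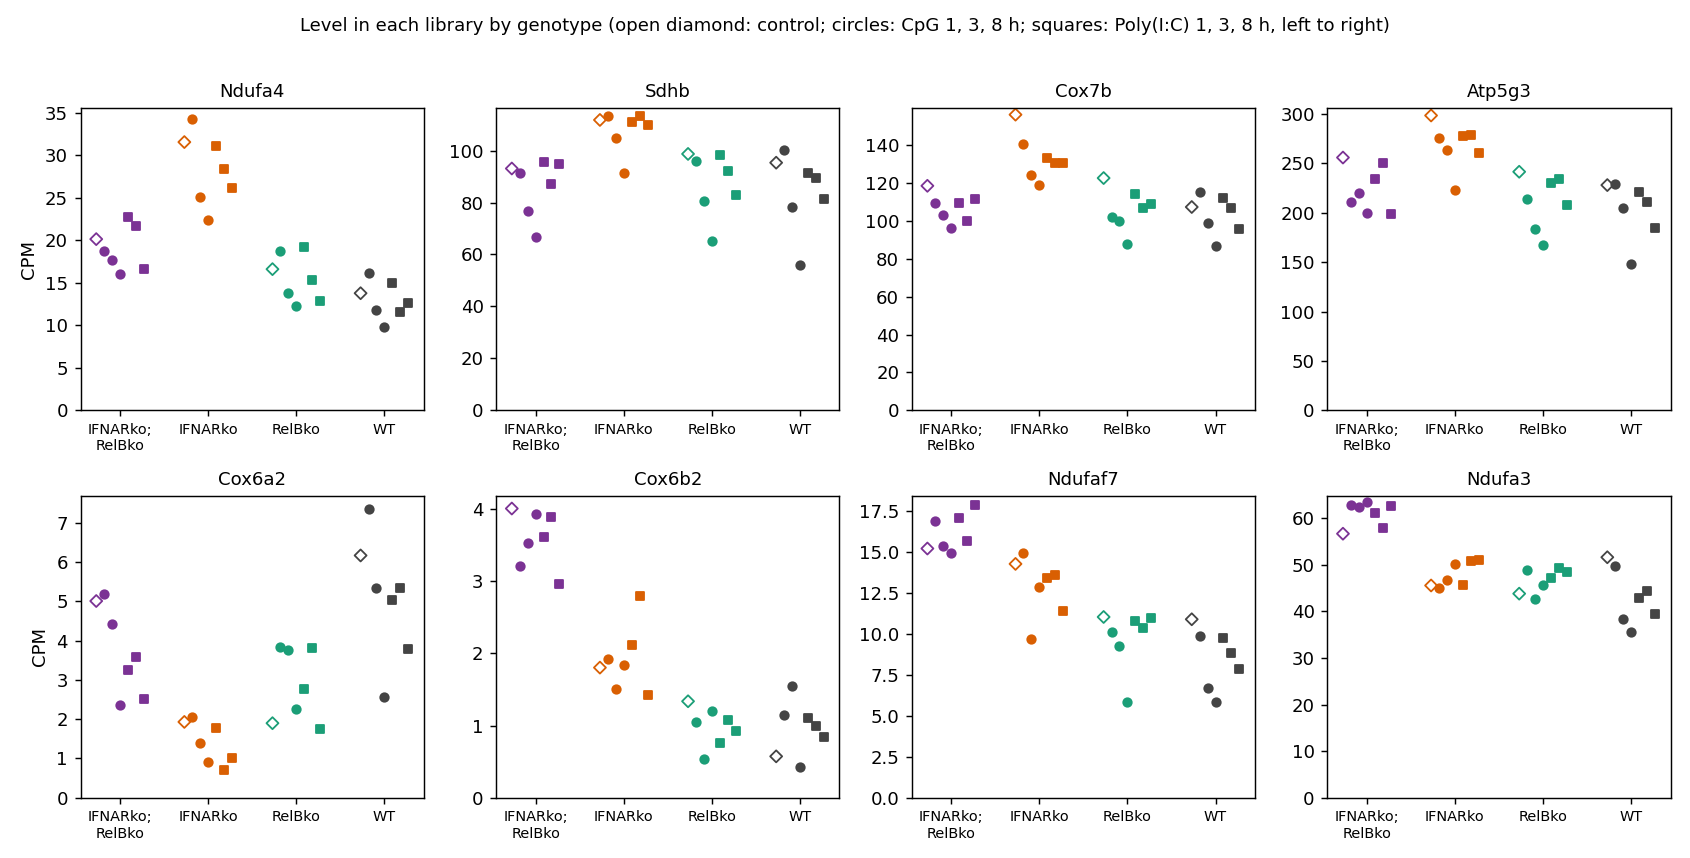
CPM in each of the 28 libraries (vertical axis, from 0) by genotype (horizontal axis) for 8 members, with diamonds for controls, circles for CpG and squares for Poly(I:C) at 1, 3 and 8 h from left to right. Stimulated Ndufa4 values in IFNARko, from 22.3 CPM up, lie above all stimulated WT values, which reach 16.1 CPM, while Cox6a2 is lowest in IFNARko, at 0.698 to 2.06 CPM.

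Some members were higher in IFNARko than in both WT and IFNARko;RelBko. Sdhb ran at 91.4 to 114 CPM in stimulated IFNARko libraries, against 56.1 to 100.1 CPM in WT (0.39 ± 0.055, adjusted p = 2.6e-06), and at 66.6 to 95.7 CPM in IFNARko;RelBko (-0.33 ± 0.055 against IFNARko, adjusted p = 2.7e-05). Atp5g3 was another (0.41 ± 0.055 for IFNARko against WT, adjusted p = 1.4e-06, and -0.27 ± 0.055 for IFNARko;RelBko against IFNARko, adjusted p = 0.00033), and Cox7b, which is X-linked, a further one (0.34 ± 0.048, adjusted p = 2.2e-06, and -0.30 ± 0.048, adjusted p = 1.5e-05). Since Xist was read in WT and IFNARko;RelBko and not above 0.589 CPM in IFNARko, sex and genotype cannot be told apart here. The other X-linked members were Ndufa1, higher in IFNARko than in WT (0.24 ± 0.063, adjusted p = 0.0028), and Ndufb11, higher in IFNARko;RelBko than in RelBko (0.27 ± 0.082, adjusted p = 0.0084), and neither was called with size factors. The difference between RelB loss without IFNAR and with IFNAR, a contrast chosen after the data were seen, called 10 members, 2 higher and 8 lower, among 12.1% and 12.2% of all genes.

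Markers of cell types differed between genotypes too. Macrophage and monocyte markers summed to 907 to 1247 CPM in IFNARko;RelBko, while IFNARko had 946 to 1452 CPM and RelBko 1429 to 2700 CPM, against 3186 to 5071 CPM in WT. Gpnmb alone made 1941 of the 3377 CPM in WT control cells and 302 of the 1041 CPM in IFNARko control cells. C1qb was at 102 and 96.6 CPM in these libraries, and at 107 and 157 CPM at 8 h of Poly(I:C). Genes of cycling cells summed to 494 to 795 CPM in IFNARko;RelBko and 390 to 721 CPM in IFNARko, against 145 to 326 CPM in RelBko and 147 to 278 CPM in WT. T and NK cell markers stood at 294 to 534 CPM in IFNARko, against no more than 33.1 CPM in IFNARko;RelBko, 59.8 to 98.8 CPM in RelBko and 46.8 to 113 CPM in WT, with Ncr1 below 1 CPM throughout. Gzma made 341.5 of 469.9 CPM in IFNARko control cells and 75.0 of 98.5 CPM in WT control cells. Mast cell and basophil markers summed to 29.9 to 38.8 CPM in IFNARko;RelBko and 20.9 to 28.4 CPM in IFNARko, against 1.43 to 4.43 CPM in RelBko and 1.80 to 5.88 CPM in WT. Neutrophil and granulocyte markers stood at 104 to 183 CPM in IFNARko;RelBko, IFNARko had 71.0 to 183 CPM and RelBko 193 to 315 CPM, against 68.0 to 125 CPM in WT. The IFNARko;RelBko sum was mostly Retnlg, at 89.8 CPM in control cells against 2.58 CPM in WT control cells. S100a9 was at 3.40 against 45.45 CPM in the same libraries. With size factors, 2 of 8 of these genes were higher and 6 lower in IFNARko;RelBko than in RelBko (median -2.41). Against IFNARko 2 were higher and 6 lower too (median -1.44). Dendritic cell markers summed to 11074 to 12364 CPM in IFNARko;RelBko. IFNARko reached 14608 to 16965 CPM, RelBko 13490 to 15501 CPM and WT 11452 to 14505 CPM. Cd74 made 5847 of 11823 CPM in IFNARko;RelBko control cells and 6386 of 13961 CPM in WT control cells. Ccr7 and Flt3 were higher in the former, at 1217 and 11.8 CPM against 758 and 2.01 CPM. For IFNARko;RelBko against IFNARko with size factors, 2 of 11 tested dendritic cell genes were higher and 9 lower (median -0.60). Erythroid markers summed to no more than 3.50 CPM, with Hba-a1 and Hbb-bs below 1 CPM. Over stimulated IFNARko and WT libraries, 5 of 6 cycling genes, 5 of 5 tested T and NK cell genes and 4 of 4 mast cell genes were called higher in IFNARko, and 8 of 11 macrophage genes lower. Their part in the genotype differences of the members was not tested. With CpG at 8 h, 5 of 6 cycling genes were called lower (median -0.97), and with Poly(I:C) 2 of 6 (median -0.36). Dendritic cell genes at 8 h were higher in 7 and lower in 2 of 11 with CpG (median 0.47), and higher in 6 and lower in 2 with Poly(I:C) (median 0.17). Macrophage and monocyte genes were higher in 2 and lower in 5 of 11 with CpG (median -0.25), and higher in 4 and lower in 1 with Poly(I:C) (median 0.56), or 6 and 0 with size factors (median 0.60). Neutrophil and granulocyte genes were lower in 3 of 8 with CpG (median -0.44) and in 2 with Poly(I:C) (median -0.28). Of 5 T and NK cell genes 1 was lower with each stimulus and 1 higher with Poly(I:C), of 4 mast cell genes 0 and 1 were lower, and the 1 erythroid gene tested was lower with both. The part of these markers in the members' fall was not tested either.

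CpG and Poly(I:C) were compared at matched times over the 4 genotypes. At 8 h, 31 members were lower with CpG and 0 higher (median -0.19), against 23.4% of all 12897 genes lower and 7.48% higher (median -0.12), and with size factors 7 lower and 1 higher were called (median -0.07, all genes -0.01), the 7 being among the 31. Leaving out RelBko gave 10 at 8 h, leaving out IFNARko 17, and leaving out the shallowest pair of libraries 48. That pair is the CpG 8 h libraries of IFNARko and IFNARko;RelBko, so depth and IFNAR state cannot be told apart in the last count. At 3 h, 13 were lower and 0 higher (median -0.11), among 31.7% of all genes lower, 8.02% higher and 39.8% in any direction (median -0.17), and with size factors 3 were lower and 12 higher (median 0.06, all genes -0.02), so the direction turned. Leaving out RelBko gave 4 at 3 h, leaving out IFNARko;RelBko 5 and leaving out IFNARko 7. At 1 h, 0 members were called by limma, with 9 at an unadjusted p under 0.05, among 1.22% of all genes (0.434% higher, 0.783% lower). The largest difference at 8 h was that of Atp5sl (-0.49 ± 0.087, adjusted p = 0.00017, or -0.37 with size factors). Sdhb and Sdha of complex II were also called under both scalings. Sdhb had 66.6, 91.4, 65.0 and 56.1 CPM with CpG in IFNARko;RelBko, IFNARko, RelBko and WT, against 94.7, 110, 82.7 and 81.3 CPM with Poly(I:C), lower in all 4 genotypes (-0.41 ± 0.068, adjusted p = 8.4e-05, or -0.28 with size factors). Sdha had 277, 241, 224 and 224 CPM with CpG, against 319, 312, 288 and 267 CPM with Poly(I:C) (-0.30 ± 0.049, adjusted p = 7.9e-05, or -0.17 with size factors). All 4 members of complex II were called lower with CpG, and so was Ndufs1 of complex I (-0.35 ± 0.060, adjusted p = 0.0001, or -0.22 with size factors). The doses of the stimuli are not matched, so this compares these treatments and not the receptors.

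Other mitochondrial genes were counted from lists that share no member with the rule. At 8 h of CpG, 15 of 18 genes of pyruvate oxidation and the citric acid cycle were called lower and 2 higher (median -0.49; 11 and 2 with size factors), and with Poly(I:C) 11 were lower and 2 higher (median -0.23). Citrate synthase, Cs, changed by -0.30 ± 0.053 with CpG (adjusted p = 0.00016) and -0.22 ± 0.044 with Poly(I:C) (adjusted p = 0.00076). A list of 10 genes held cytochrome c, membrane carriers and channels, and the electron transfer flavoproteins with their oxidoreductase. Of these 10, 8 were lower with CpG (median -0.40) and 7 with Poly(I:C) (median -0.21). The ADP/ATP carrier Slc25a5 was at -0.71 ± 0.087 (adjusted p = 4.4e-06) and -0.40 ± 0.067 (adjusted p = 0.00017). Of 75 mitochondrial ribosome genes, 54 were lower with CpG (median -0.37) and 33 with Poly(I:C) (median -0.22). Cytosolic ribosome genes, which lie outside the mitochondrion, were lower in 68 of 83 with CpG (median -0.30) and in 65 with Poly(I:C) (median -0.23). With size factors, 27 mitochondrial and 29 cytosolic ribosome genes were lower at 8 h of CpG, and 31 and 57 at 8 h of Poly(I:C), beside 47 and 42 of the 86 members, a scaling of these lists that was chosen after the data were seen.

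Of 7 tested genes encoded by mitochondrial DNA, 2 were called higher at 8 h of CpG (mt-Nd4 0.30 ± 0.091, adjusted p = 0.010, and mt-Nd5 0.37 ± 0.108, adjusted p = 0.0093). The other 5 were not called, with changes between -0.31 for mt-Nd6 and 0.21 for mt-Cytb. All 7 were called higher at 8 h of Poly(I:C) (median 0.44), with mt-Nd5, a complex I subunit, at 0.69 ± 0.086 (adjusted p = 2e-05) and mt-Cytb, of complex III, at 0.52 ± 0.083 (adjusted p = 0.00014). With size factors 4 were higher at 8 h of CpG (median 0.36) and 7 at 8 h of Poly(I:C) (median 0.48), and 0 lower at either. At 1 h of either stimulus 0 were called with size factors, but the median was already 0.25 for each. The same control libraries serve all these comparisons. The part of mRNA selection in the counts of mitochondrial transcripts was not tested. Among 12 regulators of mitochondrial biogenesis, 7 were lower at 8 h of CpG, Myc (-0.77 ± 0.215, adjusted p = 0.0092), the coactivator Ppargc1b (-0.50 ± 0.166, adjusted p = 0.017), Gabpa, an ETS subunit (-0.29 ± 0.079, adjusted p = 0.0049), Tfam, which packages and transcribes mitochondrial DNA (-0.29 ± 0.110, adjusted p = 0.037), and Nrf1 (-0.23 ± 0.093, adjusted p = 0.043) among them. With size factors 3 were lower and 1 higher. With Poly(I:C), 3 were lower and 1 higher. Of 36 further assembly and copper delivery genes, 9 were lower and 3 higher at 8 h of CpG (median -0.23), against 38.8% and 15.3% of all genes, and 10 lower and 2 higher at 8 h of Poly(I:C) (median -0.08). Between IFNARko and WT, 10 of 18 citric acid cycle genes, 35 of 75 mitochondrial ribosome genes and 13 of 83 cytosolic ribosome genes were called higher, against 40% of all genes. With size factors 5, 10 and 0 were higher and 2, 3 and 23 lower, against 22.8% and 23.2% of all genes.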

How the data were processed

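RNA-seq had been made from 28 libraries of BMDCs, 1 per genotype, stimulus and time. The authors deposited 2 sheets of signal values. Cutadapt, edgeR and mm10 appear, without versions, in the submitters' processing notes; aligner, counter and annotation are not stated in the sources used here. The values less 1 sum to 1000000 per library in the CpG sheet and to 998750 to 999250 in the Poly(I:C) sheet, so the deposited signal was read as CPM + 1, and library totals were read off the step between low values (every value within 0.05 of a read). Entries without a gene name (0.0733 to 0.116% of a library in the CpG sheet) and 11 names on several lines were left out.

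Genes at 1 CPM or more in at least 3 libraries of a fit were tested on log2(CPM + 1), so a change understates that of low genes, with limma 3.58.1 (R 4.3.3, statmod 1.5.0; trend and robust moderation, Benjamini-Hochberg over all genes tested). Responses were fitted in 16 libraries with genotype as a block, genotype and stimulus comparisons in the 24 stimulated libraries, and differences between responses in all 28. The fits were tested on simulated data. Levels per length used GENCODE M21 (mm10) transcripts, matching 85 members by symbol and 1 by synonym.

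Members and lists were chosen with earlier results of these data known. Genes named are the core subunits and isoform sets, and the largest changes and lowest adjusted p of each comparison and complex. The widest and narrowest ranges and X-linked members were also named. Atp5h, Atp5j, Atp5o, Cox6c, Ndufab1, Ndufaf1, Ndufaf4, Ndufb3, Ndufb4, Ndufs5 and Uqcr11 were named after their values were seen. So were the members listed only as tested differences. Scaling, pseudocount, filter, voom, moderation, depth and libraries left out were varied.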

Additional observations from a re-analysis of the deposited data

Results flagged for a closer look

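Each result here is a difference between groups in their response to the same contrast, by a limma test of the difference itself, in contrasts chosen after the data were seen. The change with RelB loss in cells without IFNAR less the change in cells with IFNAR, over the stimulated libraries, was 1.51 for Cox6a2 and 0.69 for Cox6b2 on the log2 scale. The same difference was -0.78 for Ndufa4, -0.39 for Sdhb, -0.37 for Ndufa5, -0.32 for Atp5g3, -0.32 for Cox7b, -0.31 for Atp5k, -0.25 for Ndufa11 and -0.25 for Sdhc. Over all 12897 genes tested, 12.1% were called higher and 12.2% lower, so the number of calls does not set the members apart. Sex as read from Xist differs in step with this contrast, and the part of sex was not tested.

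The 8 h CpG response in cells without IFNAR less that in cells with IFNAR was 0.74 for Ndufaf4, 0.72 for Ndufaf7, 0.62 for Ndufv3, 0.62 for Uqcr11, 0.56 for Ndufa2, 0.52 for Atp5d, 0.52 for Ndufa6, 0.52 for Ndufb11, 0.47 for Ndufb8, 0.43 for Cox8a and 0.35 for Cox7a2l. Over all genes, 6.61% were called higher in this contrast. The CpG 8 h libraries without IFNAR are the shallowest of the series, and the part of depth was not tested. For Poly(I:C) at 8 h the same difference was 0.70 for Ndufa6 and 0.52 for Ndufv3. There 2.62% of all genes were called higher, a share near that of the members. For the 8 h responses without RelB against with RelB, 0 members were called by limma for either stimulus. Among all 12972 genes tested, the share with a call was small too: 0.802% under CpG, 0.2% under Poly(I:C). At such shares few calls would fall on the members, so the count of 0 does not set them apart.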

How the results depend on the processing

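No paired analysis was possible because the labels carry no replicate numbers; genotype stands as a block in the responses. TMM scaling and the edgeR test, both planned, were not run: the deposited columns hold CPM + 1 and were not treated as a count table. Reads computed back from them served median-ratio scaling and voom. All 86 members are in the counts that follow, which give members called in both directions together. With median-ratio scaling the counts were 2 for CpG 1 h, 8 for CpG 3 h, 21 for Poly(I:C) 3 h, 36 for IFNARko;RelBko against IFNARko, 19 for IFNARko against WT, 1, 15 (turned) and 8 for CpG against Poly(I:C) at 1, 3 and 8 h, 4 (turned) for RelBko against WT, 13 (turned) for IFNARko;RelBko against RelBko and 18 for the difference in RelB loss. Without a filter they were 7 for Poly(I:C) 3 h and 6 for CpG against Poly(I:C) at 3 h. Plain moderation gave 6 for Poly(I:C) 3 h, and 1 additive fit gave 3 for CpG 1 h. With voom they were 1 for CpG against Poly(I:C) at 1 h, and 1 and 2 for the late CpG and Poly(I:C) responses by IFNAR. Without the shallowest pair of libraries they were 4 for CpG 1 h, 4 and 48 for CpG against Poly(I:C) at 1 and 8 h, and 2 for the late Poly(I:C) response by IFNAR. That pair holds both CpG 8 h libraries without IFNAR, so CpG at 8 h then rests on RelBko and WT. At 8 h alone the responses by IFNAR gave 11 and 2. From CpG libraries only, the counts were 0 for RelBko against WT, 8 for IFNARko;RelBko against IFNARko, 21 for IFNARko against WT and 11 for IFNARko;RelBko against RelBko. From Poly(I:C) libraries only they were 0, 15 and 22 for the same comparisons other than IFNARko against WT. Except where a value of the report itself shows the cause, the cause was not tested.

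Leaving out 1 genotype at a time gave 0 to 3 members for CpG 1 h, 9 to 31 for CpG 3 h, 57 to 70 for CpG 8 h, 0 for Poly(I:C) 1 h, 3 to 13 for Poly(I:C) 3 h, 28 to 44 for Poly(I:C) 8 h, and 0 to 1, 4 to 10 and 10 to 27 for CpG against Poly(I:C) at 1, 3 and 8 h. Leaving out 1 condition at a time gave 3 to 6 for RelBko against WT (3 without any 1 of the Poly(I:C) times), 19 to 25 for IFNARko;RelBko against IFNARko, 46 to 58 for IFNARko against WT, 36 to 45 for IFNARko;RelBko against RelBko and 8 to 14 for the difference in RelB loss.

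Single members that changed sign with median-ratio scaling were, for IFNARko against WT, Atp5c1 (-0.04), Cox4i1 (-0.02), Ndufs1 (-0.03) and Sdha (-0.04). For IFNARko;RelBko against RelBko they were Atp5a1 (-0.00), Atp5c1 (-0.02), Cox4i1 (-0.02), Cox6b1 (-0.01), Ndufb7 (-0.01), Ndufs1 (-0.03), Ndufv1 (-0.04), Sdha (-0.01), Sdhd (-0.04) and Uqcr10 (-0.03), and for CpG against Poly(I:C) at 3 h, Sdhb (0.00). Over 244 results on single members, 2341 alternatives kept direction and call and 486 lost the call. Under median-ratio scaling alone, 137 of the 244 kept direction and call, 92 lost the call and 15 changed sign. Depth limits the members near 1 CPM most.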
